A study of Mus musculus with 40 samples.

Results

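The genes P2ry12, P2ry13, Cx3cr1, Gpr34, Sall1, Olfml3, Slc2a5 and Selplg are used as markers of homeostatic microglia, and they were taken by symbol as 8 of the 54307 genes measured in laser-treated mouse eyes. RNA was sequenced from the retina and from the central choroid with its lesions in 20 mice, giving 40 libraries, 3 days after 6 laser burns per eye had broken Bruch's membrane to induce choroidal neovascularization (CNV). Each of the groups control – PLX, Tgfbr2ΔEC – PLX, control + PLX and Tgfbr2ΔEC + PLX held 5 mice. Tgfbr2ΔEC mice were Tgfbr2 fl/fl and carried 1 copy of Cdh5-CreERT2, a Cre recombinase that is made in endothelium and that tamoxifen activates, whereas controls were Tgfbr2 fl/fl littermates without the recombinase. All mice had a C57BL/6J background, both sexes were used, and all received tamoxifen eye drops at 6 to 7 weeks of age. PLX5622 (PLX), an inhibitor of the CSF1 receptor on which microglia depend, was fed in the + PLX groups from the first tamoxifen drop until the end, so that it was present before the laser treatment and after it. The deletion was thus directed to endothelium and not to microglia. Every mouse had been lasered, so a level of the genes in uninjured eyes was not analysed here. Values are normalized counts, that is estimated reads per gene divided by a factor for the library. Tgfbr2, the floxed gene, measured 164 to 293 in control – PLX and 107 to 285 in Tgfbr2ΔEC – PLX retinae, and 9836 to 10850 and 8729 to 11300 in the corresponding choroids. Its log2 difference between the genotypes was -0.32 in retina and -0.05 in choroid (exact permutation test, p = 0.325 and 0.524), and a lower level was not detectable in these libraries. Per the study's methods, the deletion had been checked by PCR and by qPCR on choroid, which was not analysed here. The libraries held about 20960636 to 30544820 reads per retina and 21449454 to 28552910 per choroid.

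Microglia are the resident macrophages of the retina. In an undisturbed tissue they survey their surroundings with fine processes and express a set of surface receptors and regulators. Circulating monocytes and most other macrophages express several of these, but not all, less or not at all. Several of these genes are known to need TGFβ signalling within the microglia themselves. P2RY12 and P2RY13 are receptors for ADP, which damaged cells release, and P2RY12 steers microglial processes towards such a source. CX3CR1 is the receptor of fractalkine (CX3CL1), which neurons and endothelium present, and GPR34 is a receptor for lysophosphatidylserine. SALL1 is a zinc finger transcription factor that maintains microglial identity. OLFML3 is a secreted glycoprotein of the olfactomedin family, SLC2A5 (GLUT5) transports fructose, and SELPLG (PSGL-1) is the ligand by which many kinds of leukocyte bind selectins.

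On GRCm39, P2ry12 (ENSMUSG00000036353, chr3:59123682-59170429) and P2ry13 (ENSMUSG00000036362, chr3:59114539-59118304) are neighbours on the minus strand. Both lie within Med12l, which runs on the other strand. Cx3cr1 (ENSMUSG00000052336) lies at chr9:119877749-119898945, Sall1 (ENSMUSG00000031665) at chr8:89753863-89770823, Olfml3 (ENSMUSG00000027848) at chr3:103629538-103645322 and Selplg (ENSMUSG00000048163) at chr5:113956597-113970705, all on the minus strand. Gpr34 (ENSMUSG00000040229, chrX:13489625-13507116, within Cask on the other strand) and Slc2a5 (ENSMUSG00000028976, chr4:150196268-150228931) lie on the plus strand. All 8 are protein-coding. With PLX, Med12l went from a mean of 684 to 710 normalized counts in retina and from 306 to 324 in choroid, and Cask from 1727 to 1671 and from 1416 to 1773. Neither host gene changed by an amount near that of the genes inside it. Cx3cr1 overlaps the antisense transcript Gm33858, which was under 9 normalized counts on average with or without PLX in either tissue. Whether the counting used the strand of the reads was not given in the sources used here.

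The start sites of these genes differ in base composition, which is why a set of them is shown here. In a window of 300 bases, from 250 before to 50 after the start of the gene's canonical transcript, 6 of the 8 held fewer CG dinucleotides than the median promoter, which held 11. Gpr34 held 3, P2ry12 and Cx3cr1 held 5 each, P2ry13 held 6, Selplg held 7 and Olfml3 held 9. Slc2a5 held 15, and Sall1, with a GC content of 73.3%, held 33. The windows of P2ry12 (chr3:59170380-59170679), P2ry13 (chr3:59118255-59118554), Cx3cr1 (chr9:119897318-119897617) and Sall1 (chr8:89769483-89769782) are given 5′ to 3′ on the minus strand of GRCm39, with each CG in capitals, from the genome sequence and the start sites of GENCODE release 39.
P2ry12: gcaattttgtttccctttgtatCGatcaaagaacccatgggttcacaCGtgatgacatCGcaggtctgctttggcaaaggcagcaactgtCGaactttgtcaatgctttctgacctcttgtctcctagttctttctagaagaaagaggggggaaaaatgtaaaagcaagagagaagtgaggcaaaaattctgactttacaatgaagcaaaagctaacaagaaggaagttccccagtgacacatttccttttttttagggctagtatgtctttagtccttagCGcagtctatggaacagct
P2ry13: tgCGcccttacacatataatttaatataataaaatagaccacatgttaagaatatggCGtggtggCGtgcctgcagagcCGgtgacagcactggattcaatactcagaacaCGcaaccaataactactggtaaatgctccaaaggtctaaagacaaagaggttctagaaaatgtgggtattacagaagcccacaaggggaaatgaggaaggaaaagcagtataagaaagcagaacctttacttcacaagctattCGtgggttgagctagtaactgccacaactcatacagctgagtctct
Cx3cr1: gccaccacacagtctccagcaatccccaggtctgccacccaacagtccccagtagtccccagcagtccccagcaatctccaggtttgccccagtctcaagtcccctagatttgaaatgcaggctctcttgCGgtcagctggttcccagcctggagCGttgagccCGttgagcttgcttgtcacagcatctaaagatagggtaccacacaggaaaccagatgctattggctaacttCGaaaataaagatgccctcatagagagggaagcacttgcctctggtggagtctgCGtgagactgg
Sall1: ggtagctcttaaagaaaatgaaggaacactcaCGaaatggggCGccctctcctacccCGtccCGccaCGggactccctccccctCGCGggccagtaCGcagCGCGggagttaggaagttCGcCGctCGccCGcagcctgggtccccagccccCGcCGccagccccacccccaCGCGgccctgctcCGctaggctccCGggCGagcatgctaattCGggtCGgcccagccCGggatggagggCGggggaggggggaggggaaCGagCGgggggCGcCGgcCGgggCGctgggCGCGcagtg

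The binding core of PU.1, the transcription factor that directs the macrophage lineage, was searched on both strands as GAGGAAGT and as the shorter GAGGAA that it contains. The longer form was found in 0 of the 8 windows and in 3.07% of 21757 promoters, and the shorter form in 1 of 8, that of P2ry13 at bases -47 to -42 before its start, and in 27.5% of promoters. For SMAD proteins, which carry the TGFβ signal, GTCTAGAC was found in 0 of 8 windows and 0.267% of promoters, and CAGACA in 1 of 8, that of Slc2a5, and 18.9% of promoters. These are matches of letters in the window and not measured binding.

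In retina, 7 of the 8 genes were lower with PLX. Cx3cr1, P2ry13 and Selplg were left at 0.279%, 0.895% and 1.18% of their level without PLX, and P2ry12 at 10.7%. The lowest of these shares rest on few reads, and that of Cx3cr1 was 0.112% without mouse 17 and that of P2ry13 0.524% without mouse 15. The question of this comparison is how much of each gene's RNA was left once the phagocytes had been depleted. The test was limma on log2(normalized count + 1) over both genotypes, called at an adjusted p at or under 0.05 (Benjamini-Hochberg). Of the 23243 retinal genes tested, 1.08% were called lower. The median log2 difference was -4.09 over the 8 genes and 0.00 over all genes tested. In bulk RNA, fewer cells of a type and less RNA per cell cannot be told apart.

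**Figure D1:**
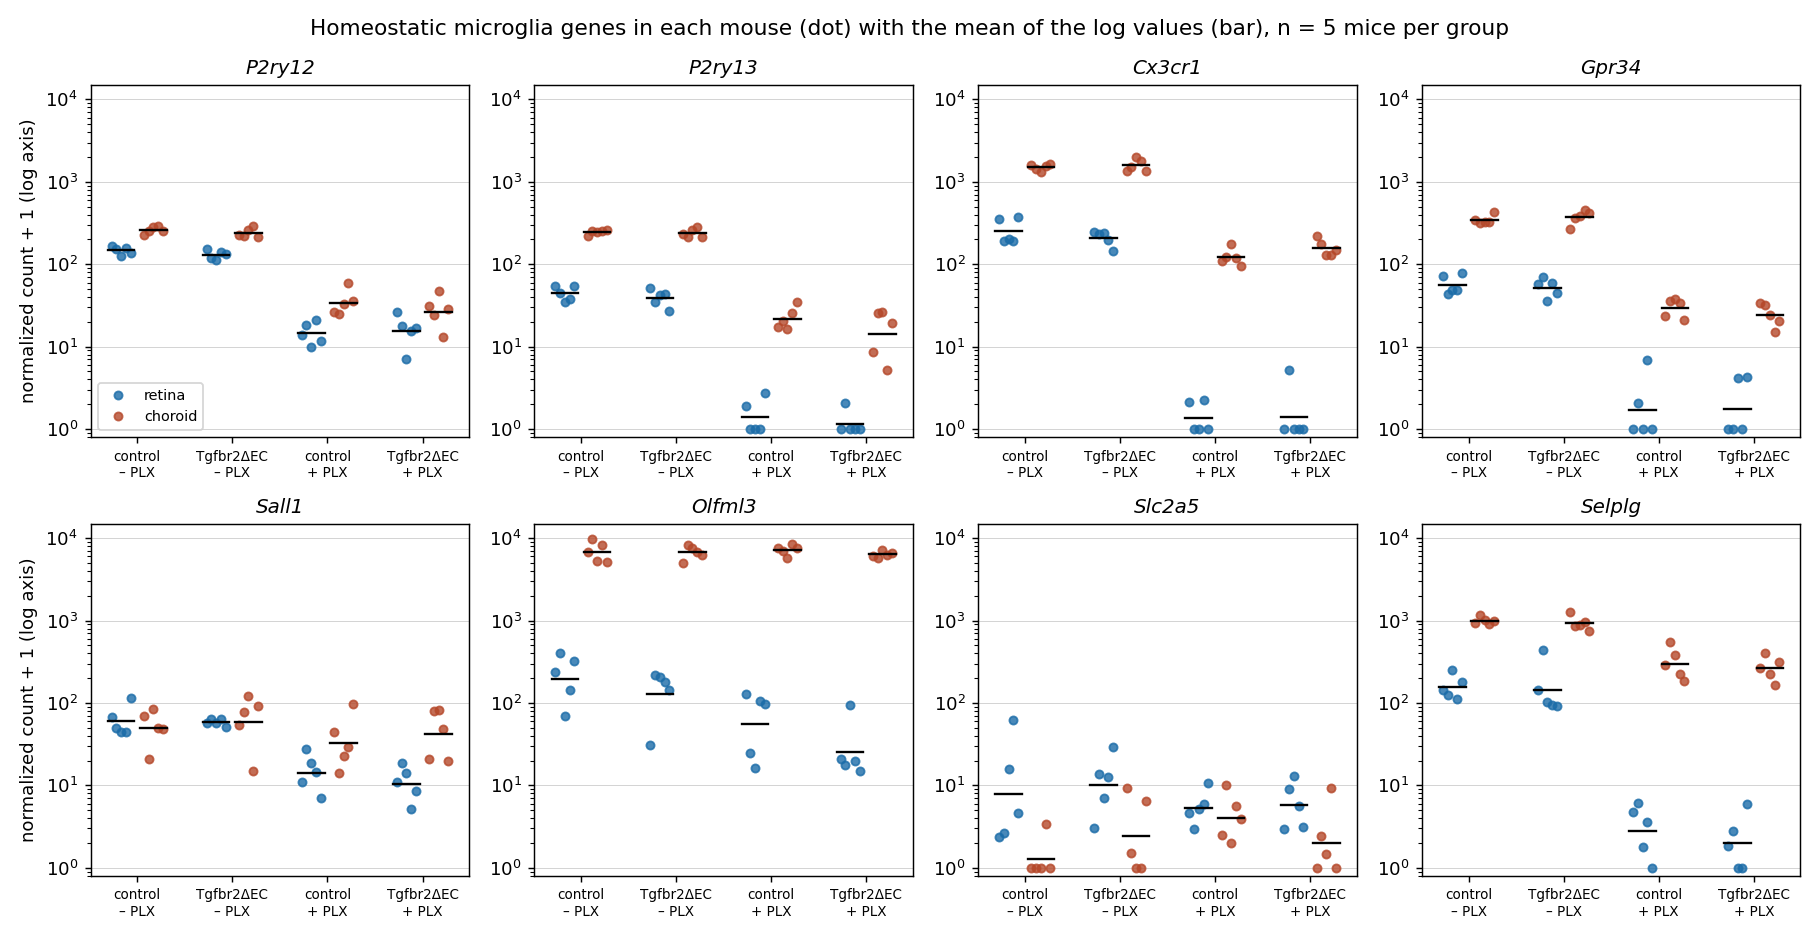
Normalized count plus 1 (log axis) of the 8 genes in each of the 20 mice, by group, with retina in blue and choroid in red; dots are mice and bars the means of the log values. In retina 6 genes, and in choroid 5, had every mouse with PLX below every mouse without it, while Olfml3 in choroid lay between 4975 and 9655 in all groups.

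Among the ADP receptors, P2ry12 measured 167, 154, 125, 155 and 134 normalized counts in mice 1 to 5 (control – PLX) and 154, 119, 112, 139 and 130 in mice 6 to 10 (Tgfbr2ΔEC – PLX). With PLX it measured 13, 17.4, 9.03, 20.1 and 10.6 in mice 11 to 15 (control) and 25.6, 16.7, 6.13, 14.6 and 15.8 in mice 16 to 20 (Tgfbr2ΔEC). Every retina with PLX lay below every retina without it, yet P2ry12 was above 0 in all 10 of them. The mean fell from 139 ± 18.1 to 14.9 ± 5.64 (SD, n = 10), which is 10.7% of the level without PLX. The 95% counting interval of that share was 8.97 to 12.6%. Such intervals follow each share left below and leave out the spread between mice. The log2 difference of P2ry12 was -3.22 (SE 0.20, adjusted p = 6.2e-10, limma). P2ry13, its neighbour on the chromosome, measured 53.6, 43.5, 34.3, 36.7 and 54.1 in mice 1 to 5 and 50.6, 34.2, 41.3, 42.2 and 25.9 in mice 6 to 10. With PLX it was listed at 0 in 7 of 10 retinae and at 0.9, 1.76 and 1.06 in mice 11, 15 and 17. About 4 reads were thus left over the 10 libraries, or 0.895% of the level without PLX (0.248 to 2.35%, and 0.524% without mouse 15), and the log2 difference was -5.04 (SE 0.25, adjusted p = 2.3e-11, limma). The log2 difference of a gene so close to 0 depends on the added 1, and that of P2ry13 ranged from -5.83 to -3.10 over the alternatives tried.

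Cx3cr1 had the largest log2 difference of the 8 genes. It measured 349, 191, 200, 193 and 375 normalized counts in mice 1 to 5 and 242, 229, 236, 195 and 143 in mice 6 to 10. With PLX it was listed at 0 in 7 of 10 retinae, at 1.14 and 1.23 in mice 11 and 14 and at 4.19 in mouse 17. The groups did not overlap, and 0.279% of the level was left (0.101 to 0.599%, and 0.112% without mouse 17), which corresponds to about 6 reads over 10 libraries. The log2 difference was -7.37 (SE 0.30, adjusted p = 7.9e-13, limma) and ranged from -8.15 to -5.38 over the alternatives. Selplg measured 144, 123, 249, 112 and 177 in mice 1 to 5 and 141, 444, 102, 94.5 and 91.4 in mice 6 to 10, where mouse 7 stood far above the rest. With PLX it measured 3.71, 5.05, 0.77, 2.57 and 0 in mice 11 to 15 and 0.86, 1.8, 0, 0 and 4.96 in mice 16 to 20. All retinae with PLX were therefore at 5.05 or less, where the floor of 3 reads was worth 2.23 to 3.37 normalized counts, and 1.18% of the level was left (0.702 to 1.79%), with a log2 difference of -5.97 (SE 0.39, adjusted p = 1.1e-09, limma). Gpr34 ranged from 34.5 to 76.5 in the 10 retinae without PLX. With PLX it was listed at 0 in 6 of 10, and the highest was mouse 14 at 5.81, so that 2.43% was left (1.28 to 4.16%, and 1.51% without mouse 14) and the log2 difference was -4.96 (SE 0.38, adjusted p = 1.6e-08, limma).

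The transcription factor Sall1 kept a larger share of its level. It measured 66.1, 49.2, 42.9, 43.8 and 114 in mice 1 to 5 and 55.5, 63.1, 56.5, 63.6 and 50.4 in mice 6 to 10, against 9.89, 27, 17.8, 13.4 and 6.08 in mice 11 to 15 and 9.87, 17.8, 13, 4.22 and 7.6 in mice 16 to 20. The highest retina with PLX (27) was still below the lowest without it (42.9). A share of 20.9% was left (17.2 to 25.4%), and the log2 difference was -2.28 (SE 0.27, adjusted p = 1.0e-05, limma).

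Olfml3 spread widely in retina and its groups overlapped. Without PLX it measured 237, 403, 67.9, 143 and 320 in mice 1 to 5 and 30.04, 220, 206, 181 and 142 in mice 6 to 10. With PLX it measured 126, 24.0, 15.4, 104 and 96.3 in mice 11 to 15 and 20.2, 16.6, 93.6, 18.6 and 13.8 in mice 16 to 20. The retinae with PLX thus held 4 values between 93.6 and 126 and 6 between 13.8 and 24.0, and the mean was 27.1% of that without PLX. The log2 difference was -2.10 (SE 0.47, adjusted p = 0.0229, limma), and it missed the threshold when 1 of mice 1, 2, 5, 8, 12, 19 or 20 was left out (adjusted p = 0.0504, 0.0528, 0.0581, 0.0548, 0.0527, 0.0504 and 0.0546, limma). Within control or Tgfbr2ΔEC mice alone it was not called either (adjusted p = 0.532 and 0.235, limma). Fibroblast markers had a median log2 difference of -0.94, from -1.21 for Fbln1 to 0.11 for Pdgfra, and 0 of 7 tested were called. Their sum had a median of 883 normalized counts in control and 773 in Tgfbr2ΔEC retinae without PLX and of 596 and 594 with it, within a range of 440 to 1600 without and 429 to 1210 with PLX. Markers of the retinal pigment epithelium summed to 6276 to 18040 in retinae and to 170300 to 392300 in choroids, which held more Olfml3. None of these markers was called with PLX in retina. The part of fibroblasts, or of tissue from the choroid side, in the retinal Olfml3 values was not tested.

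Slc2a5 was low throughout and was not called. It measured 1.39, 1.68, 15.0, 61.2 and 3.68 in mice 1 to 5 and 2.0, 12.8, 6.0, 11.5 and 28.2 in mice 6 to 10, and between 1.94 and 12 in the 10 retinae with PLX. Values without PLX lay on both sides of those with it. The log2 difference was -0.69 (95% confidence interval -1.82 to 0.44, adjusted p = 1, limma), an interval that holds both a fall and a rise.

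In 6 of the 8 genes, all but Olfml3 and Slc2a5, every one of the 10 retinae with PLX lay below every one of the 10 without it. That separation was found in 0.422% of the retinal genes tested. For these 6 genes the exact two-sided permutation test over both genotypes gave p = 3.1e-05, the smallest that it allows for 10 mice against 10 within genotypes, and within either genotype p = 0.0079, the smallest that 5 mice against 5 allow. For Olfml3 the exact permutation test gave p = 0.0013 and for Slc2a5 p = 0.245. Csf1r, which encodes the receptor that PLX inhibits, fell in retina to 10.9% of its level, a share close to that of P2ry12. In choroid the shares left were apart, at 49.3% for Csf1r and 12.5% for P2ry12.

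In choroid, 5 of the 8 genes were lower with PLX, and Sall1, Olfml3 and Slc2a5 were not called. Of the 23619 choroidal genes tested, 5.06% were called lower. The median log2 difference was -2.41 over the 8 genes and 0.00 over all genes tested. The 5 genes that fell also fell in retina, and in each of them every choroid with PLX lay below every choroid without it, a separation found in 1.75% of the choroidal genes tested.

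P2ry12 measured 226, 254, 281, 288 and 255 normalized counts in the choroids of mice 1 to 5 and 227, 219, 256, 291 and 211 in mice 6 to 10. With PLX it measured 25.7, 23.8, 31.9, 58.0 and 35.2 in mice 11 to 15 and 30.2, 23, 46, 12 and 27.7 in mice 16 to 20. The choroids with PLX all lay below those without it. The share left was 12.5% (11.1 to 14.1%), and the log2 difference was -3.06 (SE 0.19, adjusted p = 4.0e-10, limma). P2ry13 lay between 210 and 279 without PLX and between 4.27 and 33.5 with it, leaving 7.80% (6.66 to 9.06%), with a log2 difference of -3.78 (SE 0.24, adjusted p = 6.0e-10, limma).

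Cx3cr1 measured 1589, 1411, 1300, 1566 and 1643 in the choroids of mice 1 to 5 and 1347, 1527, 1996, 1797 and 1351 in mice 6 to 10. With PLX it measured 110, 121, 177, 120 and 94.4 in mice 11 to 15 and 220, 175, 129, 129 and 148 in mice 16 to 20. No choroid with PLX came near 0, unlike in retina. The share left was 9.16% (8.66 to 9.69%), and the log2 difference was -3.47 (SE 0.12, adjusted p = 1.3e-13, limma). Gpr34 fell from between 265 and 453 to between 14.2 and 37.3, leaving 7.41% (6.51 to 8.42%), with a log2 difference of -3.74 (SE 0.16, adjusted p = 3.5e-12, limma).

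Selplg kept the largest share among the genes that fell. It measured 929, 1166, 1020, 901 and 1001 in mice 1 to 5 and 1258, 860, 876, 968 and 738 in mice 6 to 10, against 285, 544, 380, 223 and 185 in mice 11 to 15 and 267, 403, 225, 165 and 311 in mice 16 to 20. The groups stayed apart, with 544 as the highest value with PLX and 738 as the lowest without it. The share left was 30.8% (29.5 to 32.1%), and the log2 difference was -1.77 (SE 0.17, adjusted p = 2.6e-07, limma).

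Sall1 was scattered in choroid in every group. Its lowest, median and highest values were 19.9, 48.9 and 82.8 in control – PLX and 14.1, 76.7 and 120 in Tgfbr2ΔEC – PLX. With PLX they were 13.2, 28.1 and 95.7 in controls and 18.6, 47.4 and 80.4 in Tgfbr2ΔEC mice. The groups overlapped over most of their range, and the log2 difference was -0.53 (95% confidence interval -1.40 to 0.34, adjusted p = 0.547, limma). Olfml3 was the most abundant of the 8 genes in choroid, at 6924 ± 1553 normalized counts without PLX and 6850 ± 866 with it (SD, n = 10). Its log2 difference was 0.01 (95% confidence interval -0.23 to 0.24, adjusted p = 0.985, limma), an interval that holds no fall of the size measured for P2ry12, P2ry13, Cx3cr1, Gpr34 or Selplg. Slc2a5 was listed at 0 in 6 of 10 choroids without PLX and 2 of 10 with it, and reached at most 8.98, so that no share left is given. Its log2 difference and its ratio to P2ry12 in choroid, given below, rest on values near the floor.

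**Figure D2:**
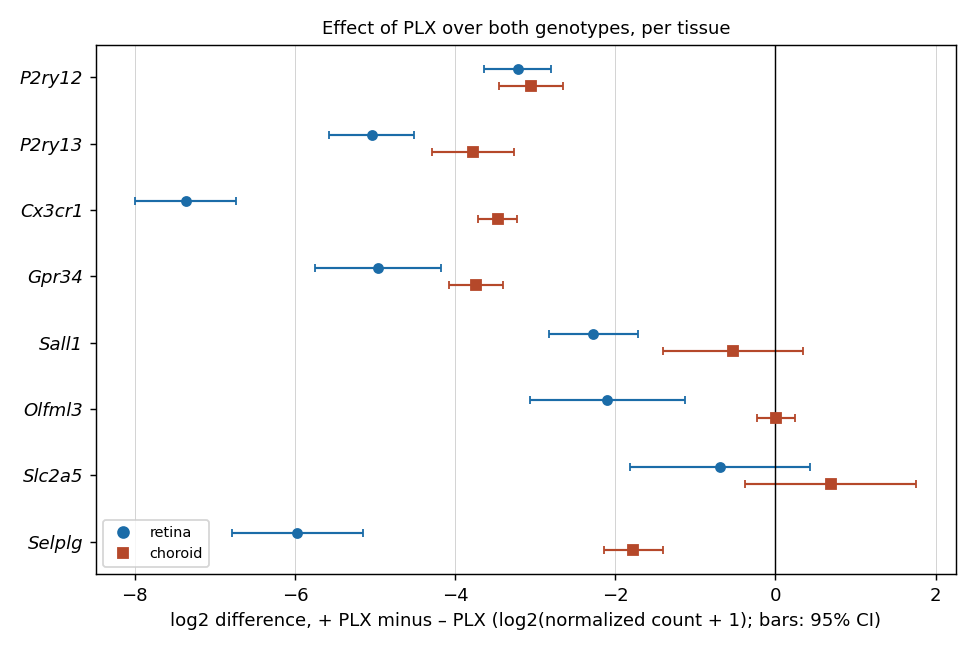
Log2 difference between + PLX and – PLX over both genotypes (10 mice against 10) for the 8 genes, on the log2(normalized count + 1) scale, in retina (circles) and choroid (squares), with 95% confidence intervals. The intervals of the tissues overlap for P2ry12 (differences of -3.22 and -3.06) and Slc2a5 (-0.69 and 0.69) and lie apart for the other genes, farthest for Selplg (-5.97 and -1.77) and Cx3cr1 (-7.37 and -3.47).

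Whether the effect of PLX differed between the tissues was tested as the difference itself, in one fit of all 40 libraries. It was larger in retina for Cx3cr1 (difference of the log2 differences -3.90, SE 0.32, adjusted p = 8.9e-11), Selplg (-4.20, SE 0.44, adjusted p = 2.6e-08) and Olfml3 (-2.11, SE 0.51, adjusted p = 0.018), each by limma. With 5 added instead of 1 the differences were -1.95 for Cx3cr1 and -2.75 for Selplg, both still called. These are 3 of the 8 genes, where 0.543% of 24317 genes tested were called in this direction. Without mouse 5 the difference of Olfml3 was not called (adjusted p = 0.055, limma). For P2ry12 the difference was -0.16 (95% confidence interval -0.73 to 0.40, adjusted p = 0.951, limma). For P2ry13, Gpr34 and Sall1 it was -1.26, -1.22 and -1.75 and missed the threshold (adjusted p = 0.0542, 0.192 and 0.0862, limma). With the mouse as a block, since both tissues come from the same animals, the difference of P2ry13 was called (adjusted p = 0.0467, limma), as it was with 0.5 added (-2.01, adjusted p = 0.00344, limma). The difference of P2ry13 was also called without mouse 11, 15, 17 or 19 (adjusted p = 0.0403, 0.023, 0.0455 and 0.0105), that of Gpr34 without mouse 14 (adjusted p = 0.0346) and that of Sall1 without mouse 12 (adjusted p = 0.0275), each by limma. With 5 added instead of 1 the differences of P2ry13 and Gpr34 turned to 0.37 and 0.29, since both genes were close to 0 in retinae with PLX.

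**Figure D3:**
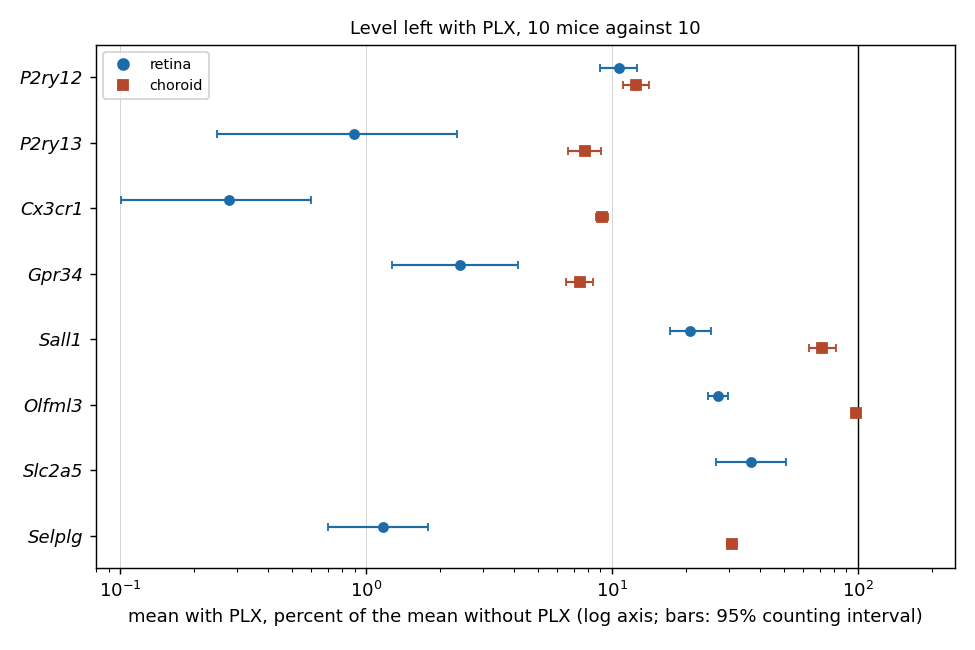
Mean with PLX as a percent of the mean without PLX (log axis) for each gene in retina (circles) and choroid (squares), 10 mice against 10, with 95% intervals that cover counting error alone; the line marks 100%. Cx3cr1 in retina was left at 0.279% and Olfml3 in choroid at 98.9%. Slc2a5 in choroid, which was near the floor, is not drawn.

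Within a tissue the genes changed by unequal amounts. P2ry12 was compared with each of the others in the same libraries, by the change with PLX in the log2 ratio of the gene to P2ry12, in 7 exact two-sided permutation tests per tissue that are not adjusted. In retina the ratio fell by 4.15 on the log2 scale for Cx3cr1, by 2.75 for Selplg and by 1.82 for P2ry13 (exact p = 3.1e-05 each, the smallest possible), and by 1.74 for Gpr34 (exact p = 0.0014). It rose by 0.94 for Sall1 (exact p = 0.0094), while for Olfml3 it changed by 1.12 (exact p = 0.0745). For Slc2a5, which was not called itself, it rose by 2.53 in retina (exact p = 0.0015). With 5 added instead of 1, the retinal ratios of Cx3cr1 and Selplg to P2ry12 changed by -2.48 and -1.61 (exact p = 3.1e-05 each), and those of P2ry13 and Gpr34 to P2ry12 changed by -0.20 (exact p = 0.27) and -0.36 (exact p = 0.121). In choroid the ratio fell by 0.72 for P2ry13 (exact p = 0.0014) and by 0.69 for Gpr34 (exact p = 0.0026), and it rose by 1.28 for Selplg (exact p = 0.00038). It also rose by 2.53 for Sall1 and 3.06 for Olfml3, neither of which was called in choroid (exact p = 3.1e-05 each). For Slc2a5, which was near the floor in choroid and not called, it rose by 3.74 (exact p = 0.00022). The ratio of a gene that stays level rises because P2ry12 fell. The rises of Slc2a5 in both tissues, and of Sall1 and Olfml3 in choroid, therefore do not show a change of those genes themselves. For Cx3cr1 in choroid the change was -0.41 (exact p = 0.0817), and -0.54 with 5 added (exact p = 0.0105).

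Whole tissue was sequenced rather than sorted cells, so markers of the cell types present are given beside the 8 genes. In retina all 15 markers of mononuclear phagocytes (MP) were called lower, from C1qc, a chain of complement C1q (-7.75), to Cd14, a co-receptor for bacterial lipopolysaccharide (-1.80). Of 13 other microglia markers 9 were called lower, with Tmem119, a membrane protein of microglia, lowest (-5.81) and Sparc, a matrix protein that other cells also make, at -0.16 and not called. Of 10 markers of border macrophages, those along vessels and in surrounding tissue, 4 were called lower in retina, among them Mrc1, the mannose receptor (-3.68), whereas Clec10a, a lectin, was at 0.21 and not called. These markers summed to 391 to 2223 normalized counts without PLX and 321 to 643 with it, and 2 of them, Cd163 and Pf4, were at 0 in all retinae with PLX, at log2 differences of -1.25 (not called) and -1.59 (called). Lyve1, Folr2 and Stab1 were at -0.11, -0.11 and -0.38 and not called. Of 8 monocyte markers 1 was called lower, Ccr2, a chemokine receptor (-3.62).

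In choroid all 15 MP markers were again called lower, from C1qa (-3.40) to Csf1r (-1.03). Here all 10 border macrophage markers were also called lower, from Cd163, a haemoglobin scavenger receptor (-5.63), to Stab1, a scavenger receptor (-2.22). Their summed level was 15130 to 28340 normalized counts in choroids without PLX, many times that in retina, and 1954 to 5465 with PLX. Of the 13 other microglia markers 9 were called lower, with Gpr84, a receptor for medium-chain fatty acids, lowest (-2.94), while Sparc was at 0.07 and not called. Tmem119, the lowest of these markers in retina, was at 0.03 in choroid and not called, with 103% of its level left. Of 8 monocyte markers 2 were called lower, including Ccr2 (-1.83), while Fn1, fibronectin, was at 0.19 and not called. Fibroblast markers, of which 0 of 8 were called lower and 1 higher, summed to 430200 to 605700 without PLX and 494300 to 697400 with it. Which of these cells carried the RNA of the 8 genes in choroid was not tested.

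Among all genes tested, 2.07% were called higher with PLX in choroid and 0.0172% in retina. Of 8 endothelial markers 4 were called higher with PLX in choroid and 0 of 8 were called in retina. Among mural cell, Schwann cell and mast cell markers, 2, 2 and 1 of 8 each were called higher in choroid and 0 in retina. None of the tested neutrophil, platelet, retinal pigment epithelium or neural retina markers was called in either tissue over both genotypes. Of 12 lymphocyte markers 1 was called lower in choroid, as were 2 of 8 Müller glia markers, the lowest being Apoe (-0.72), which macrophages also express.

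Choroid libraries held some RNA of the neural retina, and its amount moved with the groups. Estimated from 10 photoreceptor genes, the share of the retinal level had a median of 1.54% in control – PLX, 4.41% in Tgfbr2ΔEC – PLX, 1.09% in control + PLX and 1.46% in Tgfbr2ΔEC + PLX choroids, with the highest libraries at 10.8% (a Tgfbr2ΔEC – PLX mouse) and 9.69% (mouse 15). At that share of the retinal values, retina would have given at most 5.13% of the P2ry12 measured in any choroid, 1.6% of P2ry13, 1.46% of Cx3cr1 and 1.86% of Selplg. For Sall1 it reached 46.3% in 1 choroid, and the median over the choroids was 1.17%. For Slc2a5, which was near the floor, it reached 99.7% in 1 choroid, with a median of 7.11% over the 12 choroids in which the gene was above 0. With a neural retina score as a covariate the same 5 genes were called lower with PLX in choroid.

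Between the genotypes, 0 of the 8 genes were called in either tissue, with or without PLX. In retina 0% of the 23243 genes tested were called in either diet, and in choroid 0.00423% (1 gene) without PLX and 0.00423% with it. Without mouse 15, the control + PLX choroid rich in retinal RNA, the count in choroid without PLX was 411, still with 0 of the 8 genes. In choroids without PLX the share of retinal RNA was 0.237 to 2.13% in control and 3.45 to 10.8% in Tgfbr2ΔEC mice. Genotype and that share are thus confounded in this comparison. At an unadjusted p under 0.05 the fit gave 758 and 629 genes in retina and 2184 and 889 in choroid, among them 1 of the 8, Cx3cr1 in choroid with PLX. It measured 124 ± 31.2 normalized counts in control + PLX and 160 ± 38.3 in Tgfbr2ΔEC + PLX choroids (SD, n = 5), values that overlapped, and the log2 difference was 0.37 (95% confidence interval 0.02 to 0.72, adjusted p = 1, limma, and p = 0.127 by the exact permutation test). None of the 48 exact tests of the genotype or of its interaction with PLX passed 0.05, and the lowest was 0.0791, for the interaction of Slc2a5 in choroid.

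Without PLX, the retinal log2 difference between Tgfbr2ΔEC and control mice was -0.17 for P2ry12 (95% confidence interval -0.76 to 0.42), -0.28 for Cx3cr1 (-1.17 to 0.61) and -0.13 for Selplg (-1.28 to 1.02). In choroid the corresponding differences were -0.12 for P2ry12 (-0.69 to 0.45), 0.08 for Cx3cr1 (-0.27 to 0.43) and -0.11 for Selplg (-0.63 to 0.40). In choroid without PLX the intervals of all but Sall1 and Slc2a5 lay within a log2 difference of 1 in either direction. The test of whether the effect of PLX differed between the genotypes called 0 of the 8 genes in either tissue, and none of the others (0% of the genes tested in retina and 0% in choroid, with 567 and 1552 genes at an unadjusted p under 0.05).

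**Figure D4:**
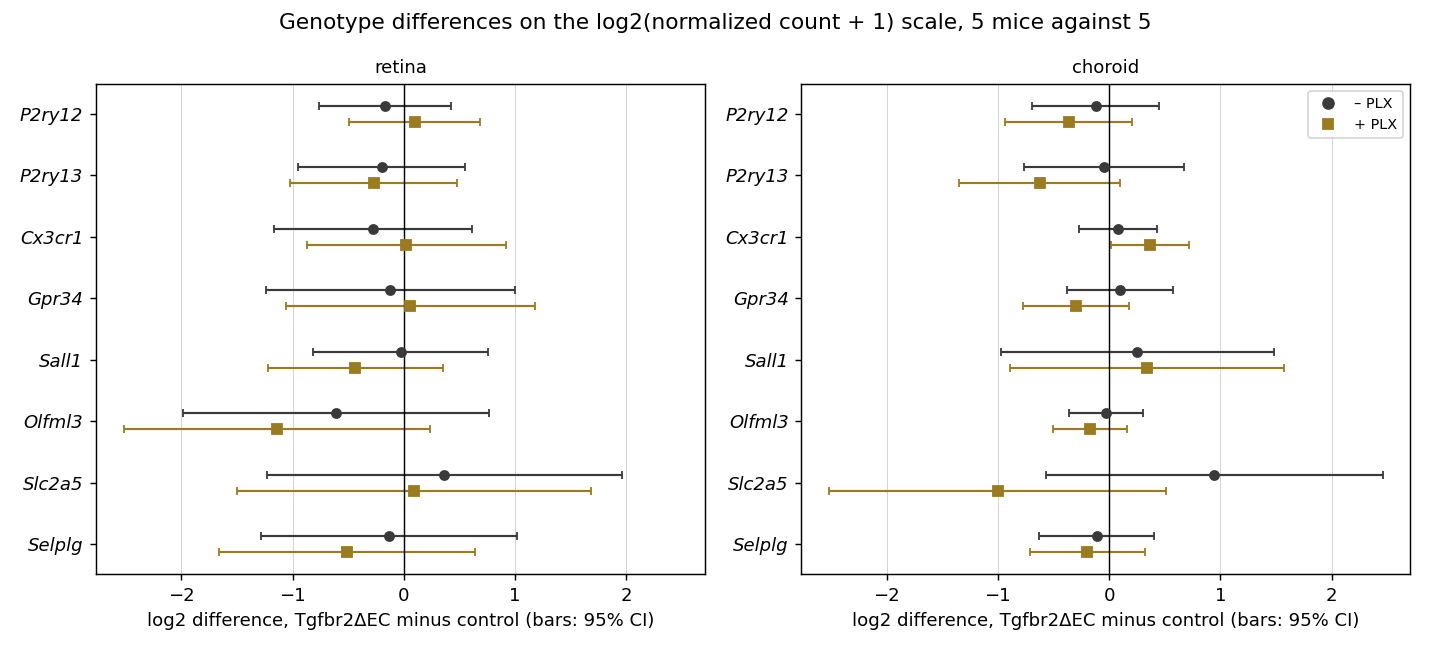
Log2 difference between Tgfbr2ΔEC and control mice (5 against 5) for the 8 genes in retina (left) and choroid (right), without PLX (circles) and with PLX (squares), with 95% confidence intervals. All intervals hold 0 except that of Cx3cr1 in choroid with PLX (0.02 to 0.72).

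The tissues also differed in how much of each gene they held. Without PLX, 6 of the 8 genes were lower in retina than in choroid, where 37.7% of the 24317 genes tested were called lower, and Slc2a5 was higher, as were 37.4%. The values of both tissues were deposited together and were taken here as scaled together. The paper states that the tissues were analysed separately after quantification. Normalized counts in choroid were 1.81 times those in retina for P2ry12 (adjusted p = 0.00022, limma, higher in 10 of 10 mice), 5.8 times for P2ry13, 5.79 times for Selplg and 6.6 times for both Cx3cr1 and Gpr34. For Olfml3 the ratio was 35.5, and for Sall1 it was 1.02, with the choroid higher in 6 of 10 mice. On log values the difference of Sall1, retina minus choroid, was 0.14 (adjusted p = 0.737, limma), the other direction from the ratio of the means. Slc2a5 in retina was at 14.3 ± 18.4 and in choroid at 1.67 ± 2.92 (SD, n = 10), the latter under the floor. With PLX, 7 of the 8 genes were lower in retina, where 37.7% of all genes tested were lower and 37.7% higher, and Slc2a5 was not called (adjusted p = 0.11, limma), except without mouse 19 (adjusted p = 0.045). With PLX, Cx3cr1 measured 142 ± 38 normalized counts in choroid and 0.657 ± 1.34 in retina, Selplg 299 ± 116 and 1.97 ± 2.00, and Olfml3 6850 ± 866 and 52.8 ± 45.7 (SD, n = 10). These are the 3 genes in which the effect of PLX was called different between the tissues in the main fit. The other genes did not pass that test there, though P2ry13 did with the mouse as a block (adjusted p = 0.0467, limma). Among them P2ry13 measured 18.9 ± 8.60 in choroid and 0.373 ± 0.638 in retina with PLX, and Gpr34 26.8 ± 7.74 and 1.33 ± 2.04, while the ratio of choroid to retina with PLX was 2.11 for P2ry12 and 3.52 for Sall1.

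Per kilobase of the canonical transcript, which allows genes to be set beside each other, the order of the levels in retina without PLX was Selplg (89.7 normalized counts per kilobase), Cx3cr1 (62.6), P2ry12 (58.1), Olfml3 (35.7), Gpr34 (22), P2ry13 (12.6), Sall1 (10.8) and Slc2a5 (4.14). Neighbours in this order differed by less than the larger of their SDs for Selplg and Cx3cr1, Cx3cr1 and P2ry12, Olfml3 and Gpr34, and P2ry13 and Sall1. In choroid without PLX the order was Olfml3 (1266), Selplg (519), Cx3cr1 (413), Gpr34 (145), P2ry12 (105), P2ry13 (73.2), Sall1 (11.1) and Slc2a5 (0.482), and all neighbours differed by more than that. P2ry12 thus stood above Gpr34 in retina and below it in choroid. With PLX, Olfml3 (9.66) and P2ry12 (6.22) were the highest in retina and did not differ beyond their spread. The mix of isoforms was not known, so that these levels are approximate.

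Genes with a pattern like that of each member were sought by Pearson correlation of log2(normalized count + 1) over the 40 libraries, among 18160 genes, as a description. The points share 2 tissues and 2 diets, between which these genes differ in level. A high value therefore need not mean that the genes vary together among the mice of a group. P2ry12 was most like P2ry13 (0.91), Gpr34 (0.89) and Siglech, a microglial lectin (0.87). P2ry13 was most like Cx3cr1 (0.97), Gpr34 (0.96) and C1qa (0.96), and Gpr34 most like Cx3cr1 (0.96), P2ry13 (0.96) and Fcrl2 (0.95). Cx3cr1 went with C1qa, C1qc and C1qb (0.99, 0.98 and 0.97), and Selplg with C1qc, C1qa and Ly86 (0.98 each). Sall1 was less tightly matched, to Siglech (0.75), Cx3cr1 (0.73) and P2ry13 (0.70). Olfml3 resembled none of the other members most and went with Acot2, Gstm2 and Ucp2 (0.97 each), and the best match of Slc2a5, 1700030C10Rik, reached only 0.69.

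The partners and relatives of these genes were followed as well. Cx3cl1, the ligand of CX3CR1, lay between 1863 and 3575 normalized counts over the retinae, with a log2 difference of -0.02 with PLX (adjusted p = 1, limma). In choroid its values were 1144 to 2278 in mice without PLX and 1541 to 2977 in those given it, and over both genotypes it rose by 0.40 (adjusted p = 0.0185, limma). The log2 difference was 0.12 in control mice (exact permutation test, p = 0.524) and 0.69 in Tgfbr2ΔEC mice (exact p = 0.0079, the smallest possible), and the exact permutation test of the difference between them gave 0.57 (p = 0.024, not adjusted), while limma called 0 genes in that interaction. Among 10 ligands, enzymes and selectins that act with the 8 genes, including Cx3cl1, 2 were called lower and 1 higher in choroid, the lowest being Abhd12, which degrades lysophosphatidylserine (-0.47), and Selp, the P-selectin that binds PSGL-1, was at 0.44 and not called. In retina 0 of 9 tested were called. Of 12 other genes of purine signalling 5 were called lower in choroid and 1 of 11 tested in retina, and P2ry6, the UDP receptor, was lowest in both (-1.79 and -3.18). Entpd2, which degrades nucleotides outside the cell, was highest in choroid at 0.23, and Nt5e, which makes adenosine, in retina at 0.21, neither called.

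Of 11 transcription factors that act in microglia and macrophages, 6 were called lower and 1 higher in choroid and 4 lower in retina. Spi1, which encodes PU.1, was lowest in retina (-4.12), and Sall3, a relative of Sall1, was lowest in choroid (-2.61). Smad3, which carries the TGFβ signal, was highest in both and was called in choroid (0.31) but not in retina (0.20). Of 14 genes of the TGFβ pathway, 3 were called lower and 1 higher in choroid, with Nrros, which anchors latent TGFβ on microglia and macrophages, lowest (-1.64), and 1 was called lower in retina, Tgfb1, the ligand (-0.98). Of 9 other glucose transporters 1 was called lower in choroid, Slc2a9 (-0.66), and 1 higher, and 0 were called in retina. Of 8 further genes, 7 of them relatives of SALL1, OLFML3 and GPR34 and the last Cx3cl1 again, 1 was called lower and 2 higher in choroid and 0 of 7 tested in retina.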

How the data were processed

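Reads were checked by the authors with FastQC 0.11.5, quantified with Salmon 1.10.1 on GRCm39 and passed through tximport to DESeq2 1.36.0. The deposited signal per gene is a DESeq2-normalized count, and both tissues stand in one table of 54307 genes. The values are not whole numbers: in each library 45.9 to 72.1% of low values lay within 0.1 of a whole read. Reads were therefore not recovered, no count test was run, and depths are approximate. A floor of 3 reads came to 2.23 to 3.37 normalized counts in retina. Counting intervals and floors cover counting error alone.

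Groups came from the labels. limma 3.58.1 (R 4.3.3) was run, with a trend of variance on mean, on log2(normalized count + 1). Genes averaging 1 or more entered, among them all 8 members, and p-values were adjusted over them (Benjamini-Hochberg). Each tissue was fitted with its 4 groups, and tissues were compared in a fit of all 8. On this scale the change of a low gene is understated. Exact two-sided permutation tests of single genes were not adjusted. Sex and a neuronal percentage, which the authors fitted as covariates, are not in the labels, so scores stood for them in alternatives. The alternatives also covered the pseudocount (0.5 and 5), the filter, the scaling, a robust variance, single genotypes and leaving out each mouse. The procedure was tested on simulated data. Permutations were run in Python 3.11.15 (scipy 1.17.1). Gene positions and start sites came from GENCODE release 39, to which 53700 identifiers and 210 of 211 listed symbols matched.

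The 8 genes and all lists were chosen with earlier results of these data known. Other genes were named by rule: Tgfbr2, Csf1r, Cx3cl1, the 3 genes most alike each member, and the lowest and highest of a list. Med12l, Cask and Gm33858, which overlap members, Cd163, Pf4, Lyve1, Folr2 and Stab1 in retina and Tmem119 in choroid were named after their values were seen. Retina and choroid of a mouse pair because they come from 1 animal. Deviations of such pairs from their group means correlated by -0.16 to 0.29, and 14 of 20 retinae were closest to their own choroid.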

Additional observations from a re-analysis of the deposited data

Results flagged for a closer look

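The effect of PLX differed between retina and choroid in 3 of the 8 genes, by the tested difference of the log2 differences, which was -3.90 for Cx3cr1, -4.20 for Selplg and -2.11 for Olfml3. With 5 added instead of 1 it was -1.95 for Cx3cr1 and -2.75 for Selplg, and without mouse 5 that of Olfml3 was not called (adjusted p = 0.055, limma). With the mouse as a block, that of P2ry13 was called as well (adjusted p = 0.0467, limma).

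In 9 of the 64 combinations of gene and group, 1 of the 5 mice lay apart from the others, by a gap of over 0.71 of the group's range. Chance gives such a gap in about 1 in 20 groups of regular, independent values, but these groups share mice and several lie at the floor, where 1 library with a read makes the gap, so the number was not set against chance. Mouse 7 had 444 normalized counts of Selplg in a Tgfbr2ΔEC – PLX retina, against 91.4 to 141 in the others (gap 0.859 of the range), and mouse 18 had 93.6 of Olfml3 in a Tgfbr2ΔEC + PLX retina, against 13.8 to 20.2 (0.92). Mouse 5 had 433 of Gpr34 in a control – PLX choroid, against 311 to 345 (0.724). Mouse 4 was highest for Slc2a5 in both tissues of the control – PLX group, at 61.2 in retina against 1.39 to 15.0 (0.773) and at 2.42 in choroid, where the others were at 0 (gap 1.0, under the floor of 3 reads). Among low values, mouse 19 had 8.41 of Slc2a5 in a Tgfbr2ΔEC + PLX choroid, against 0 to 1.45 (0.827). Mouse 14 had 5.81 of Gpr34 in a control + PLX retina, against 0 to 1.09 (0.812), and mouse 17 had 4.19 of Cx3cr1 and 1.06 of P2ry13 in a Tgfbr2ΔEC + PLX retina, where the others were at 0 (gap 1.0 each). Without any 1 of these mice the calls of Selplg, Gpr34, Cx3cr1 and P2ry13 with PLX were kept in both tissues.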

How the results depend on the processing

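The counts of the 8 genes called stayed within 1.5 times the reported count under every alternative run. With PLX, 7 genes were called lower in retina under the other pseudocounts, filters, scalings, variance estimate and sex score, and 6 within either genotype alone or without 1 of 7 mice, Olfml3 being the gene that was lost. In choroid the same 5 genes were called lower under each alternative, and the genotype comparisons called 0 of 8 under each. With the mouse as a block, to pair the tissues of an animal, the counts of 7, 7 and 3 genes in the tissue comparisons without PLX, with PLX and in their interaction became 7, 7 and 4, P2ry13 being added to the interaction (adjusted p = 0.0467, limma). P2ry13 was also added with a pseudocount of 0.5, a minimum mean of 10 and both other scalings (adjusted p = 0.00344, 0.0393, 0.0487 and 0.04, limma). Of 2539 alternative values of single genes, not counting those of single genotypes, 8 lost a call, each when 1 mouse was left out, 12 gained one and 0 turned a called direction. Over all genes, the count called in retina with PLX was 254, and 154 with a minimum mean of 10. The genotype comparison of choroids without PLX called 1 gene, 0 with a minimum mean of 10, 303 when only its 10 libraries were fitted and 411 without mouse 15, none of them among the 8, and the cause was not tested. The interaction of tissue and PLX called 332 genes, and 620 without mouse 15. Adding 5 instead of 1 moved the interaction of Cx3cr1 from -3.90 to -1.95 and that of Selplg from -4.20 to -2.75. Depth limits Slc2a5 in choroid, and Cx3cr1, P2ry13, Gpr34 and Selplg in retinae with PLX, where most values were at or near 0.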
